A study of Mus musculus with 5 samples.

Results

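The genes described here are 37 genes of the cell cycle, of 26189 genes in the deposited single-cell tables. They were chosen as known genes of division and not by a measured value, though with earlier results of these data known. Of them, 12 act in the synthesis (S) phase, 19 in G2 or mitosis (G2/M), 3 are raised broadly in dividing cells (Stmn1, Hmgb2 and Tubb5) and 3 are the D cyclins (Ccnd1, Ccnd2 and Ccnd3). All 37 were found in both tables, and each had at least 60 molecules over all cells, the lowest being Aurka.

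A dividing cell passes through S phase, in which it copies its DNA, and then through G2 into mitosis. In S phase the E2F factors drive the MCM helicase subunits, the replication clamp Pcna and enzymes that make nucleotides; later a complex with B-Myb and FoxM1 drives cyclins, spindle proteins and the kinases of mitosis. The D cyclins act before S phase, pairing with Cdk4 or Cdk6 to inactivate the retinoblastoma protein, and which of them a cell uses depends on its lineage. In atherosclerosis, division of macrophages inside the plaque is known to add to the macrophage pool, and in the thymus the precursors of T cells divide after the first antigen receptor chain has been assembled.

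The study took the aortic arch of female mice labelled as 12-week-old and sorted live cells with CD45, the common surface protein of leukocytes. Both genotypes had received an adeno-associated virus and a Western diet for 18 weeks. One genotype was C57BL/6J, called wild-type by the study, and the other was C57BL/6N-Saa3tm1.1(KOMP)Vlcg/MbpMmucd, which lacks the serum amyloid A gene Saa3; the labels call the mice littermates, name different substrains and do not give the number of mice. The cells were tagged by genotype and sequenced as 1 library, so each genotype is 1 tag pool with no replicate; 4 macrophage cultures of the series (C57BL/6J, with or without 100 ng/mL SAA3 for 24 h) are not analysed here.

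The pool labelled wild-type held 833 cells and 7289593 molecules after cells with over 25% of molecules from mitochondrial (mt-) genes were left out, and the pool labelled Saa3-/- held 823 cells and 5231922 molecules. The median depth was 6415 and 4698 molecules per cell, respectively. Saa3 itself went against the labels: 1079 molecules were counted in the pool labelled wild-type against 1268 in the shallower pool labelled Saa3-/-, and the link of tag to genotype rests on the names of the tables. Whether the counted part of Saa3 lies in the deleted part is not given in the sources used here. With 1 pool per genotype, the values below carry exact 95% intervals that cover counting error only, and no test between genotypes was possible. No barcode was shared by the tables.

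Cells were typed by fixed marker genes, none of them among the 37. A cell passed a gate with 5 or more molecules from 3 or more markers of a type, at 2-fold or more above the mean of all cells; a gate is a range on a score, and 41 of 264 macrophage-gated and 27 of 308 T cell-gated cells lay near its limit. The thymocyte gate needed in addition 2 or more molecules of Rag1, Rag2, Dntt, Ptcra and Arpp21 together, and a cell that passed it was taken out of the T cell, NK cell and ILC2 gates. The scoring and this rule were chosen after marker values were seen. Rag1 and Rag2 cut the antigen receptor genes, Dntt adds bases at the cuts, and Ptcra is a chain of the early receptor, so these genes define developing T cells. The 98 thymocyte-gated cells carried a median of 38.0 molecules of the thymocyte markers and 78.2 molecules of the T cell markers per 10000 molecules, and for 34 of them a second gate scored close to the first. Sums of the macrophage, fibroblast and smooth muscle markers were 5.23, 11.9 and 6.10 per 10000 in the same cells, and 5.55, 7.99 and 6.67 in the T cell gate; the part of RNA from other cells in the results was not tested. The genes that led the T cell gate by fold were of the gamma-delta and interleukin-17 type, among them Trdv4, Il17a and Tcrg-C1. Although the sort was for CD45+, 170 cells passed the smooth muscle gate and 138 the fibroblast gate.

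The promoters of 29 of the 37 genes were matched in RefSeq (GRCm38.p6), each as 300 bases from 250 before to 50 after the start of transcription. Both strands were searched for TTTGAA and TTTAAA, the letters of the cell cycle homology region bound by the late complex, for CCAAT, the box bound by NF-Y, and for the E2F cores TTTCCCGC, TTTGGCGC, TTTCGCGC and TTTGCCGC. The 4 promoters shown carry the contrast between late and early genes, in gene orientation with the matches in capitals. A match on the opposite strand reads as its reverse complement: CCAAT then shows as the letters ATTGG. In the same way the homology letters show as TTCAAA in Top2a, and 1 E2F core as GCGGGAAA in Mcm3. In Mcm6 a pair of E2F matches on opposite strands overlap.
Ccnb2: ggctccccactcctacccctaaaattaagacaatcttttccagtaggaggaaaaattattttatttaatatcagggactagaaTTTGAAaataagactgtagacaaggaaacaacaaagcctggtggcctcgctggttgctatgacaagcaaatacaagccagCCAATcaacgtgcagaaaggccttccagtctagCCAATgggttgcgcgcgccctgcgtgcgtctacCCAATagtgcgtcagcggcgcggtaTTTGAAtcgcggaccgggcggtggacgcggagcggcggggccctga
Top2a: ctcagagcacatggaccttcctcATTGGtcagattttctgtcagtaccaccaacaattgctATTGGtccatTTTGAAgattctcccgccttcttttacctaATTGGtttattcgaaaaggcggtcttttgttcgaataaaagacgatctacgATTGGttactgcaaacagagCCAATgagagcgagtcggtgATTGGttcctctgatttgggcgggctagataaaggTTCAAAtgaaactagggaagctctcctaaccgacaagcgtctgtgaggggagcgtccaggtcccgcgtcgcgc
Mcm3: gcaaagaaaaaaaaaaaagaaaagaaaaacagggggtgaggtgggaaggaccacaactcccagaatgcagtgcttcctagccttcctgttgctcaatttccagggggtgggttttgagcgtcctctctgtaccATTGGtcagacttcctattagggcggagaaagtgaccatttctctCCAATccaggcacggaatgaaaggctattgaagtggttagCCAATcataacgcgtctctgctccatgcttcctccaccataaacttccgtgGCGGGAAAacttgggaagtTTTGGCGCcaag
Mcm6: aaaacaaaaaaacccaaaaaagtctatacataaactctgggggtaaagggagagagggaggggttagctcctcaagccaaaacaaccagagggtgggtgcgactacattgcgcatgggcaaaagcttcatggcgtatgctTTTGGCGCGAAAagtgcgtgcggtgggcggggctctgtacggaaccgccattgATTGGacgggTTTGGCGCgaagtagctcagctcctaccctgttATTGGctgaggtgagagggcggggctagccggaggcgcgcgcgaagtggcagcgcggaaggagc

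The first, Ccnb2 at chr9:70421505-70421804 on the minus strand, encodes cyclin B2, a partner of Cdk1 in mitosis. It holds 3 CCAAT boxes, at -87, -54 and -21 from the start, and TTTGAA at -167 and 5. Top2a at chr11:99024140-99024439 on the minus strand encodes the topoisomerase that untangles sister chromosomes, and it holds a CCAAT at -78, 5 more on the opposite strand, and TTTGAA at -179 and, on the opposite strand, -23. Mcm3 at chr1:20820263-20820562 and Mcm6 at chr1:128359656-128359955, both on the minus strand, encode subunits of the replicative helicase. Mcm3 holds E2F cores at 20 and 39 after the start, and Mcm6 at -110, -106 and -47.

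The late and early genes held these letters in different shares. The cell cycle homology letters were in 14 of 16 G2/M promoters (87.5%), in 4 of 11 S promoters (36.4%) and in 27.6% of all 32851 promoters of that length. An E2F core was in 4 of the 11 S promoters, those of Mcm3, Mcm5, Mcm6 and Mcm7, in 1 of 16 G2/M promoters, that of Cdk1, and in 2.26% of all promoters. CCAAT was in 14 of 16 G2/M and 9 of 11 S promoters against 37.4% of all, and CCAAT together with the homology letters was in 13 of 16, 3 of 11 and 10.7%. Of the D cyclins only Ccnd3 was matched, and its 2 promoters held a CCAAT in 1 and neither of the other motifs. These matches describe the letters of the windows. Aurkb, Ccna2, Ccnd1, Ccnd2, Ccne2, Mcm4, Stmn1 and Tpx2 were not matched.

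The molecules of the 31 S and G2/M genes lay above all in the thymocyte gate. This gate held 25 cells of the pool labelled wild-type, which is 3.00% of that pool, and 73 cells of the pool labelled Saa3-/-, which is 8.87%. Those cells carried 24.5% of the S and G2/M molecules of the first pool and 46.0% of those of the second, against 2.72% and 7.72% of all molecules. For G2/M genes alone the shares were 32.0% and 60.8%.

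Summed over a gate, the S and G2/M level per 10000 molecules was 94.6 (90.4 to 99.0) in thymocyte-gated cells of the pool labelled wild-type and 63.8 (61.4 to 66.3) in those of the pool labelled Saa3-/-. The T cell gate stood at 20.2 (19.2 to 21.3) and 9.22 (8.50 to 9.97), the dendritic cell gate at 10.9 (9.90 to 11.9) and 13.1 (11.8 to 14.6), and the B cell gate at 9.99 (9.04 to 11.0) and 5.30 (4.66 to 6.01). The macrophage gate stood at 8.04 (7.64 to 8.46) and 6.90 (6.34 to 7.49). Monocyte-gated cells, at 3.84 and 4.00, fibroblast-gated cells, at 2.80 and 2.25, and smooth muscle-gated cells, at 2.38 and 2.52, made up the low end. In each of these 3 low gates the intervals of the 2 pools overlapped. The thymocyte gate was thus the highest in both pools, and the order of the T cell, dendritic cell and B cell gates differed between the pools.

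Single cells carried much of these sums. In the thymocyte gate of the pool labelled wild-type 1 of 25 cells held 22.4% of the S and G2/M molecules and 5 held 62.0%, and in that of the pool labelled Saa3-/- 1 of 73 held 9.44% and 5 held 32.6%. Without the top cell the 2 levels were 89.0 and 59.3. In the T cell gate of the pool labelled wild-type, 1 of 148 cells held 26.1% of the S and G2/M molecules and 5 cells held 68.1%, and with every cell weighing the same the level was 10.7 in place of 20.2. In the T cell gate of the pool labelled Saa3-/-, 1 cell held 25.7%, and the level was 14.9 in place of 9.22 when the thymocyte gate was drawn without the rule on Rag1 and its partners. In the natural killer (NK) cell gate of the pool labelled wild-type, 1 of 11 cells held 76.7%, and the level was 28.5 with that cell and 8.52 without it.

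Cell by cell, the level had a long upper tail. Of 1656 cells, 421 were below 2 molecules per 10000, 188 lay between 10 and 20, 44 between 20 and 50, 21 between 50 and 100, and 34 at 100 or more. Of those 34, 28 were thymocyte-gated, out of 43 thymocyte-gated cells at 20 or more. The median level per cell was 36.1 and 13.3 in the thymocyte gate of the pools labelled wild-type and Saa3-/-, 7.01 and 6.29 in the T cell gate, 4.15 and 3.83 in the macrophage gate and 2.03 and 1.96 in the smooth muscle gate. The highest cells reached 217 and 237 in the thymocyte gate, 121 and 158 in the T cell gate, 128 and 144 in the macrophage gate, and 7.97 and 7.75 in the smooth muscle gate.

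**Figure D1:**
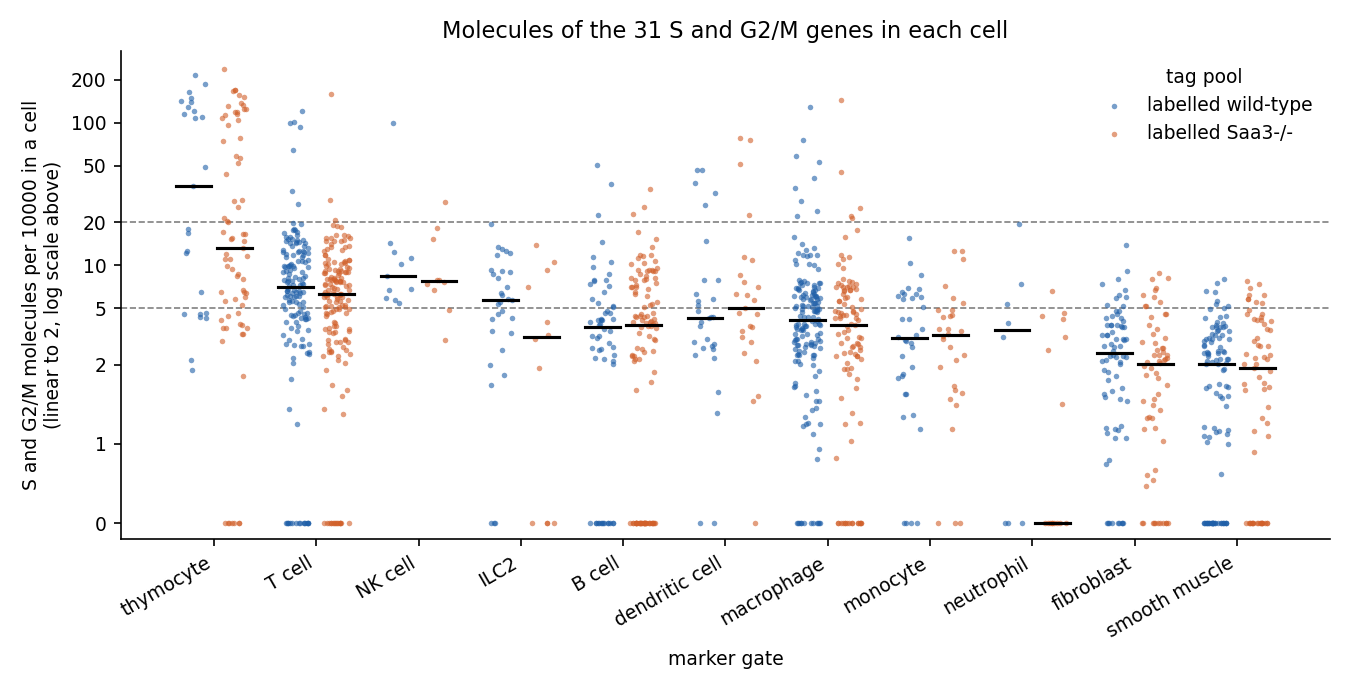
Molecules of the 31 S and G2/M genes per 10000 molecules in each cell (vertical axis, linear to 2 and log scale above) by marker gate, with 1 point per cell coloured by tag pool, black bars at the medians and dashed lines at 5 and 20. Thymocyte-gated cells reach 237, while no smooth muscle-gated or fibroblast-gated cell reaches 20.

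A cell was called cycling with molecules of 3 or more of the 31 genes at 5 or more per 10000, and the same call at 20 or more, which 96 of the 99 cells at that level met, was added after the range had been seen. In what follows, cells at 20 or more are those that met this call. At the lower limit, 281 cells lay between 4 and 6, on either side of it. There 18 of 25 thymocyte-gated cells (72.0%, 50.6 to 87.9) were called in the pool labelled wild-type and 41 of 73 (56.2%, 44.1 to 67.8) in the pool labelled Saa3-/-. In the T cell gate 57 of 148 (38.5%) and 56 of 160 (35.0%) were called, and in the macrophage gate 52 of 162 (32.1%) and 26 of 102 (25.5%). In the small NK cell gate 9 of 11 (81.8%, 48.2 to 97.7) and 4 of 10 (40%, 12.2 to 73.8) were called, the first share above that of the thymocyte gate. Smooth muscle-gated cells, which differ in type and carry low levels of the genes, were still called in 6 of 105 (5.71%) and 6 of 65 (9.23%). The intervals of the 2 pools overlapped in each of these 5 gates.

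Most of the calls outside the thymocyte gate sat between the 2 limits. At 20 or more, 13 of 25 (52.0%, 31.3 to 72.2) and 30 of 73 (41.1%, 29.7 to 53.2) thymocyte-gated cells were called, against 7 of 148 (4.73%) and 3 of 160 (1.88%) in the T cell gate and 9 of 162 (5.56%) and 4 of 102 (3.92%) in the macrophage gate. Dendritic cell-gated cells stood between, with 5 of 30 (16.7%) and 4 of 25 (16.0%). Over that gate macrophage markers summed to 26.6 per 10000 and dendritic cell markers to 14.9, with medians per cell of 6.91 and 12.3. Molecules of the macrophage complement gene C1qb ranged from 3 to 68 in the 5 called cells and from 1 to 3 in the 4. The part of macrophage RNA in these shares was not tested. In the B cell gate 3 of 58 and 2 of 110 cells were called, and in the NK cell gate 1 of 11 and 1 of 10. Some calls at 20 rest on few molecules. A macrophage-gated cell of the pool labelled Saa3-/- had 3 S and 1 G2/M molecules, and a T cell-gated cell of the pool labelled wild-type had 5 and 0. Both had 0 molecules of Mki67 and Top2a, while other called cells of these 2 gates reached 162 and 235 G2/M molecules. None was called among 170 smooth muscle-gated cells, which allows a share of up to 1.76% at 3 cells of the total (exact 95% upper limit 2.15%), nor among the cells of the fibroblast, monocyte, ILC2 and neutrophil gates.

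The share called at the lower limit fell when cells were brought to 1 depth. With every cell thinned to 2000 molecules, which 1612 of the 1656 cells had, the share called at 5 was 64.0% and 45.2% in the thymocyte gate, 16.0% and 9.62% in the T cell gate, 11.3% and 11.0% in the macrophage gate, 20.0% and 24.0% in the dendritic cell gate and 0.971% and 0% in the smooth muscle gate. The thymocyte gate stayed highest of those 5 gates in both pools. Median depth was 6076 and 4559 molecules in the thymocyte gate, 4186 and 4045 in the T cell gate and 9290 and 6606 in the macrophage gate.

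Because the thymocyte gate draws in cells with Rag1 and its partners, how few of them are left in the T cell gate is partly set by that rule. Of 10 T cell-gated cells called at 20 or more, 8 had no molecule of Rag1, Rag2, Dntt, Ptcra or Arpp21 and 1 had 13 molecules of them. Of 13 such macrophage-gated cells 12 had none, and of 9 dendritic cell-gated cells 8 had none. The cells were also clustered without the 37 genes, 44 other S and G2/M genes, 12 G1 regulators, 10 inhibitors of division and Saa3. There 36 cells formed a cluster in which all 36 were at 20 or more and 35 were thymocyte-gated. It drew 14 cells from the pool labelled wild-type and 22 from the pool labelled Saa3-/-. A neighbouring cluster of 57 cells, 53 of them thymocyte-gated, had 20 cells called at 5, of which 6 were at 20 or more. Other genes that go with the call, such as Pclaf and Tuba1b, were not left out before clustering. The clusters are therefore not independent of the call.

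Gene by gene, 35 of the 37 were highest in the thymocyte gate in both pools, among the 8 gates with 20 or more cells per pool, where 14.5% of all genes with 20 or more molecules were. All 12 S genes, all 19 G2/M genes, Stmn1, Hmgb2, Tubb5 and Ccnd3 were among the 35. The exceptions were Ccnd1 and Ccnd2.

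**Figure D2:**
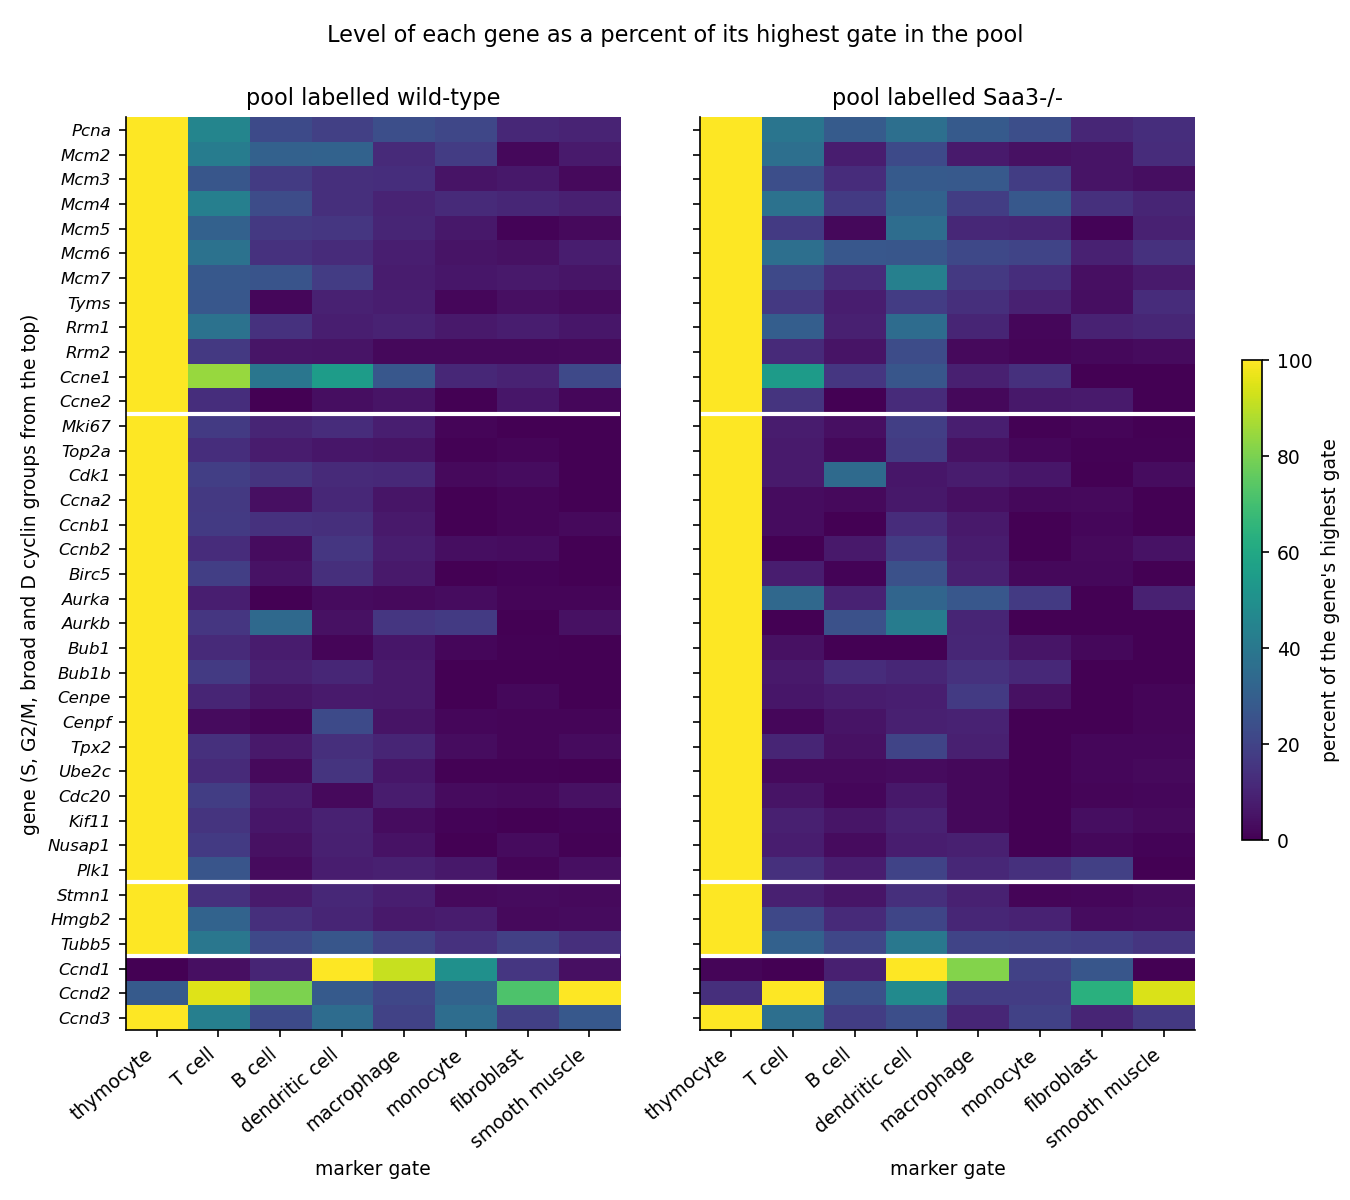
Summed level of each of the 37 genes (rows) in 8 marker gates (columns), as a percent of the gene's highest gate in the pool labelled wild-type (left) and Saa3-/- (right). The thymocyte column is the highest for 35 of the 37 genes in both pools, with Ccnd1 and Ccnd2 in other gates.

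Of the G2/M genes, Mki67 encodes the coat protein of mitotic chromosomes that pathologists stain to count dividing cells. It had 267 molecules in 25 thymocyte-gated cells of the pool labelled wild-type, or 13.5 per 10000 (11.9 to 15.2), and 397 molecules in 73 cells of the pool labelled Saa3-/-, or 9.84 (8.89 to 10.8). In the T cell gate its level was 2.27 and 0.734, in the dendritic cell gate 1.69 and 1.83, and in the macrophage gate 1.12 and 0.809. At least 1 molecule was found in 14 of 25 (56.0%) and 25 of 73 (34.2%) thymocyte-gated cells and in 28.4% and 12.7% of macrophage-gated cells. The background in smooth muscle-gated cells was 3 of 105 (2.86%) and 0 of 65, at median depths of 8280 and 6665 molecules, so the macrophage shares lay above it at a like depth.

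Top2a was also highest in the thymocyte gate, with 321 and 397 molecules in the thymocyte gate, which is 16.2 (14.5 to 18.1) and 9.84 (8.89 to 10.8) per 10000. It stood at 2.15 and 0.719 in the T cell gate, at 0.833 and 0.423 in the macrophage gate and at 0.045 and 0.062 in the smooth muscle gate. The thymocyte gate of the pool labelled Saa3-/- alone held 65.4% of that pool's Top2a molecules and 60.1% of its Mki67 molecules.

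The regulators of mitosis were counted less often but lay in the same cells. Ccna2, the cyclin of S phase and early mitosis, stood at 3.08 and 1.73 per 10000 in the thymocyte gate and at 0.169 and 0.072 in the macrophage gate. Ube2c, the ubiquitin enzyme that works with the anaphase complex, stood at 3.68 and 2.35, and Cenpe, a kinesin of the kinetochore, at 3.48 and 1.71. The kinases Aurka, at 0.807 and 0.223, and Aurkb, at 0.504 and 0.347, were counted at 25 and 24 molecules in the thymocyte gate of both pools together. The remaining G2/M genes (Cdk1, Ccnb1, Ccnb2, Birc5, Bub1, Bub1b, Cenpf, Tpx2, Cdc20, Kif11, Nusap1 and Plk1) ranged from 0.857 to 2.92 in the thymocyte gate of the pool labelled wild-type and from 0.545 to 2.33 in that of the pool labelled Saa3-/-.

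Among S genes Pcna was the most widespread, found in 56.6% of all cells. It stood at 7.61 (6.45 to 8.93) and 6.32 (5.57 to 7.14) per 10000 in the thymocyte gate, at 3.47 and 2.46 in the T cell gate, and still at 0.748 and 0.833 in the smooth muscle gate. The helicase subunits Mcm2 to Mcm7 ranged in the thymocyte gate from 1.1 to 4.39 in the pool labelled wild-type and from 0.818 to 2.06 in the pool labelled Saa3-/-. Rrm1 and Rrm2, the subunits of the enzyme that makes deoxynucleotides, stood at 2.97 and 1.96 and at 3.98 and 2.85. Tyms, which makes thymidylate, stood at 1.51 and 0.818 there. Ccne1, the E cyclin gene that starts S phase with Cdk2, was least set apart: it stood at 0.252 and 0.273 in the thymocyte gate and at 0.213 and 0.150 in the T cell gate, from 5 and 11 molecules in the former. Its relative Ccne2 stood at 0.605 and 0.595 in the thymocyte gate and at 0.080 and 0.090 in the T cell gate.

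The broad genes were counted most. Hmgb2, a chromatin protein, stood at 20.4 and 16.1 per 10000 in the thymocyte gate, Stmn1, which destabilises microtubules, at 14.7 and 12.9, and the tubulin gene Tubb5 at 13.6 and 11.4. Tubb5 was found at 1.82 and 1.77 in the smooth muscle gate, where Stmn1 stood at 0.357 and 0.375.

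The D cyclins split by cell type. Among the 8 gates with 20 or more cells per pool, Ccnd1 was highest in dendritic cell-gated cells, at 1.69 and 1.97 per 10000. Macrophage-gated cells followed at 1.55 and 1.61, with overlapping intervals between those 2 gates in each pool. The dendritic cell gate held macrophage markers at 26.6 and its own markers at 14.9 per 10000, and the part of macrophage RNA in its Ccnd1 level was not tested. Monocyte-gated cells stood at 0.848 and 0.381. In the thymocyte gate it had 0 molecules in 25 cells and 1 molecule in 73, and in the T cell gate 0.067 and 0 per 10000. Cells of the thymocyte gate therefore carried the highest levels of the S and G2/M genes with almost no Ccnd1 molecule.

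Among the 8 gates with 20 or more cells per pool, Ccnd2 was highest in the T cell gate, at 3.36 and 4.05, and the smooth muscle gate, at 3.54 and 3.81. These neighbours overlapped within their intervals in each pool. Fibroblast-gated cells followed at 2.55 and 2.57, macrophage-gated cells stood at 0.759 and 0.713, and thymocyte-gated cells at 1.01 and 0.545. Smooth muscle-gated cells thus carried Ccnd2 at the level of the T cell gate, with none of them at 20 or more. In the smaller gates it stood at 5.29 and 9.22 in NK cell-gated cells and at 4.90 and 3.86 in ILC2-gated cells (group 2 innate lymphoid cells). In the B cell gate it stood at 2.84 and 0.984, and 34 of the 115 molecules of the first pool lay in 1 cell.

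Ccnd3, the D cyclin known for its part in early T cell expansion, was highest in the thymocyte gate, at 4.18 (3.33 to 5.19) and 6.66 (5.89 to 7.51). It was the 1 D cyclin found in most of those cells, in 76.0% and 82.2%. The T cell gate stood at 1.80 and 2.43, the smooth muscle gate at 1.15 and 1.1 and the macrophage gate at 0.833 and 0.725.

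**Figure D3:**
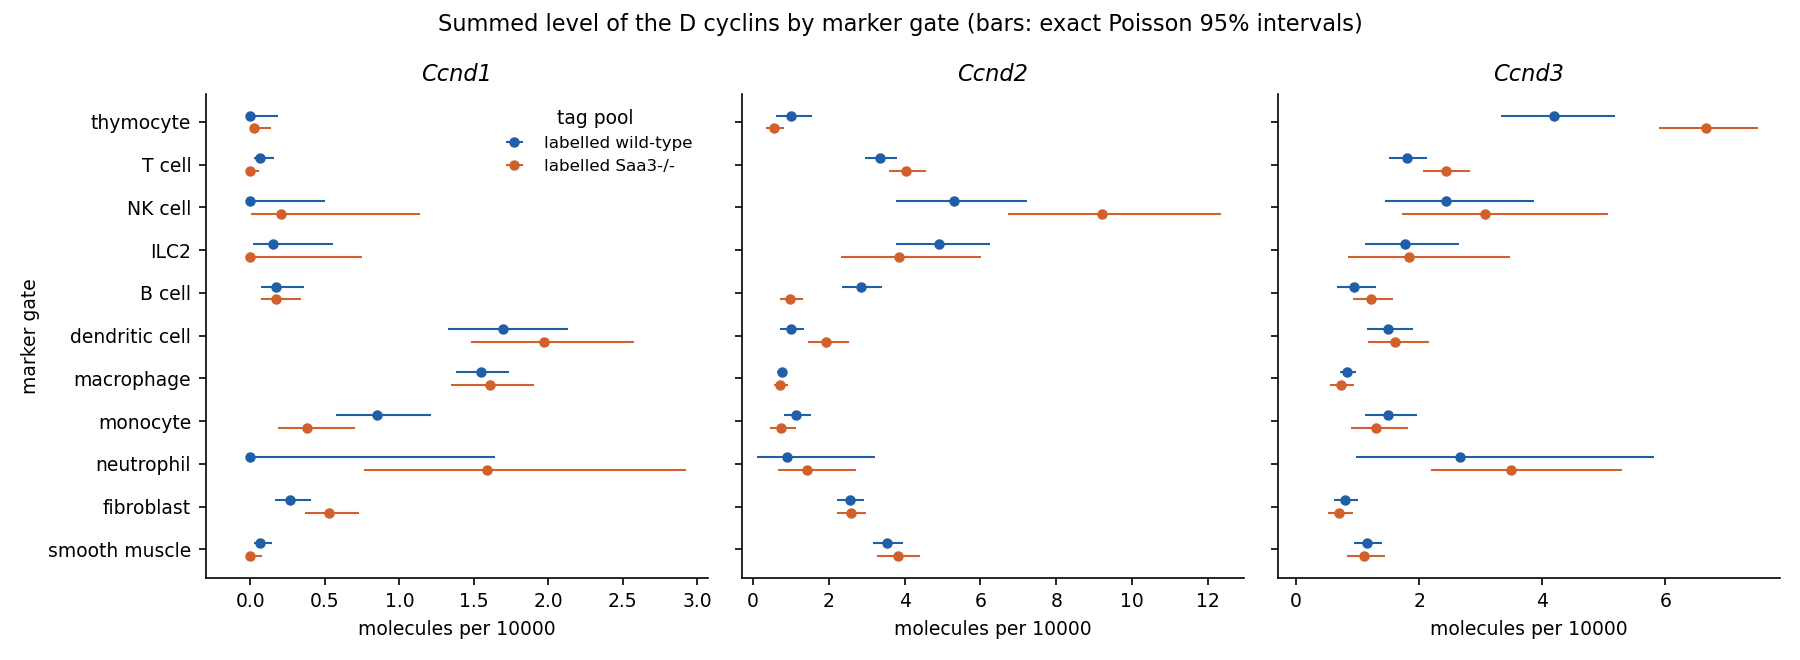
Molecules per 10000 (horizontal axes) of Ccnd1, Ccnd2 and Ccnd3 in 11 marker gates (vertical axis), with points for the summed level of each tag pool and bars for exact Poisson 95% intervals of counting error. Ccnd1 lies in the dendritic cell and macrophage gates and Ccnd3 highest in the thymocyte gate, at 4.18 and 6.66.

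Phase was set by which group held more molecules in a called cell, so the 31 genes themselves carry no support for it. At 5 or more, 30 thymocyte-gated cells leaned to S, 26 to G2/M and 3 were level. By pool, 6 of 18 cells (33.3%, 13.3 to 59.0) leaned to S in the pool labelled wild-type and 24 of 41 (58.5%, 42.1 to 73.7) in the pool labelled Saa3-/-, with overlapping intervals. With phase set by the S and G2/M genes outside the list, the second share was 34.1%. The T cell gate had 89 S-leaning, 16 G2/M-leaning and 8 level cells, and the macrophage gate 54, 15 and 9. In the smooth muscle gate 11 of 12 called cells leaned to S, a gate in which Pcna was present and Top2a was at or near 0, so an S-leaning call at this limit is not read as division.

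At 20 or more the balance was nearer to even. Of the 96 cells called, 41 leaned to S, 53 to G2/M and 2 were level. The thymocyte gate had 19, 23 and 1, the T cell gate 5 and 5, the macrophage gate 6 and 7, and the dendritic cell gate 2, 6 and 1. Among the thymocyte-gated cells at 20 or more, Pcna stood at 13.2 per 10000 in S-leaning and 7.36 in G2/M-leaning cells, while Ube2c stood at 0.616 and 6.87. Rrm2, counted as an S gene, stood at 4.86 and 5.24, nearly level.

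Cycle genes outside the list, which had no part in the call, followed the phase in most cells at 20 or more of the thymocyte gate. In its 19 S-leaning cells at 20 or more, 22 other S genes summed to 48.4 per 10000 and 22 other G2/M genes to 26.0, with the S sum larger in 14 of the 19. In its 23 G2/M-leaning cells the sums were 27.5 and 66.8, with the G2/M sum larger in 21 of the 23. In the macrophage gate 5 of 6 S-leaning cells had the larger S sum, and all 7 G2/M-leaning cells had the larger G2/M sum (11.1 against 41.2). The T cell gate was less clear, with the same side larger in 3 of 5 cells of each lean. At the lower limit of 5, S-leaning cells followed less. There the other S sum was larger in 17 of 30 S-leaning thymocyte-gated cells and the other G2/M sum in 13. In the macrophage gate these numbers were 26 of 54 and 17. Of the G2/M-leaning cells at that limit, the other G2/M sum was larger in 24 of 26 and 14 of 15.

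**Figure D4:**
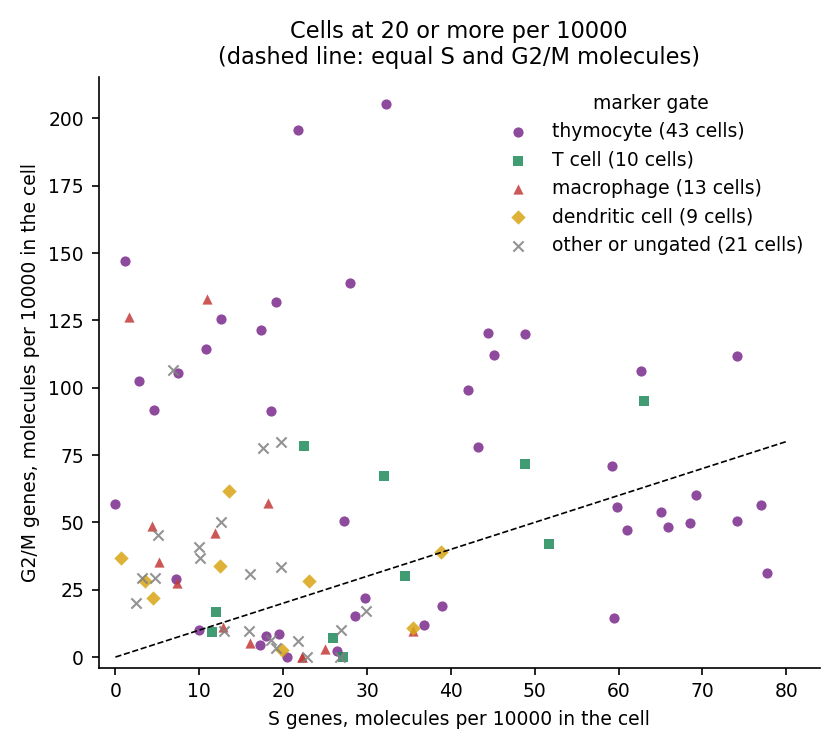
S molecules (horizontal axis) against G2/M molecules (vertical axis), both per 10000, in the 96 cells called at 20 or more, with 1 point per cell marked by gate and a dashed line of equal molecules. The 43 thymocyte-gated cells span both sides of the line and hold the highest G2/M values.

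Genes outside the list also stood higher in called cells than in the other cells of their gate. In the thymocyte gate at 20 or more, all 9 other S genes with enough molecules and 15 of 16 other G2/M genes were 2-fold or more higher in called cells of the pool labelled wild-type, where 18.3% of all genes tested were. In the pool labelled Saa3-/- 17 of 18 and 18 of 18 were, against 11.8% of all genes. Enough means 20 or more molecules over called and other cells together, here and below. A gene near 0 in the other cells thus entered only through the called cells, where it is high. These counts are therefore partly set by the filter. A gene with 0 molecules in the other cells was set to 3 there, which makes its ratio a lower bound; this held for 1 of 9 S and 11 of 16 G2/M genes in the first pool and for 4 of 18 and 4 of 18 in the second. With genes at their bound the median log2 ratios were 3.18 and 1.92 in the first pool, against 0.08 for all genes, and 2.62 and 3.63 in the second, against -0.12, so the 1.92 is set largely by that floor. At the lower limit the counts were 6 of 9 and 4 of 16 (22.4% of all genes) and 17 of 18 and 18 of 18 (12.5%). The counts of the first pool rest on 7 other cells, and of its 12 G2/M genes short of the fold 11 had 0 molecules in those cells, such as Cdca8 with 31 in called cells and Prc1 with 35.

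Named by their number of molecules, Uhrf1, which keeps DNA methylation through replication, stood at 3.54 per 10000 in called against 0.184 in other thymocyte-gated cells of the pool labelled wild-type and at 4.26 against 0.642 in the pool labelled Saa3-/-. The DNA ligase gene Lig1 stood at 4.45 against 0.368 and at 3.36 against 0.408. Of the G2/M genes the condensin subunit Smc2 stood at 4.52 against 1.29 and at 3.92 against 0.117. Its partner Smc4, abundant in both, stood at 16.6 against 8.46 and at 14.3 against 6.01. 

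Genes outside the list with 100 or more molecules were ranked over both pools. The ranking used the ratio between thymocyte-gated cells called at 5 and the rest. A gene near 0 in the other cells entered only through the called cells, so the ranking is partly set by the filter. Genes with fewer molecules, some with larger ratios, were left out. Of the top 10, Pclaf led with 309 molecules in called cells and 0 in the others. Pclaf is a partner of Pcna at the replication fork. The other 9 were Lig1, Tuba1b, Cdca7, Smc2, Dnajc9, Dnmt1, Dut, Tmpo and Pola1, with log2 ratios from 4.56 for Lig1 to 2.68 for Pola1. Tuba1b, a tubulin gene, stood at 10.6 against 0.897 per 10000.

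Of the G1 regulators, Cdk2, the partner of the E and A cyclins, was higher in thymocyte-gated cells at 20 or more by 1.83 and 2.88 on the log2 scale, and E2f2 by 3.27 and 1.46. Of 12 such genes 4 of 7 with enough molecules passed the fold upward in the pool labelled wild-type and 6 of 10 in the pool labelled Saa3-/-, where 18.3% and 11.8% of all genes did. Cdk6, a partner of the D cyclins, passed downward in the first pool, with 18 molecules in the other cells and 10 in the called (-2.25), and was at -0.10 in the second. Of the inhibitors of division 2 of 4 were 2-fold or more lower in called cells of the pool labelled wild-type, where 14.1% of all genes were, and none was higher. In the pool labelled Saa3-/- 1 of 7 was lower, where 15.2% of all genes were, and 2 of 7 were higher, Cdkn1a and Cdkn2c (1.50), where 11.8% were. Btg1 was lower in called cells in both pools, with log2 ratios of -1.66 and -1.17. Cdkn1a, the p21 gene, was at -1.11 in the pool labelled wild-type, from 20 molecules, and at 1.63 in the pool labelled Saa3-/-, from 57, and Cdkn1b (p27) was at -0.60 and -0.04.

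Of 7 genes of T cell stage, chosen with their values known, some differed with the call. Trac, the constant part of the mature alpha chain, stood at 1.25 (0.741 to 1.98) per 10000 in thymocyte-gated cells at 20 or more and at 11.9 (8.20 to 16.7) in those not called at 5 in the pool labelled wild-type, and at 2.58 (1.97 to 3.33) and 5.46 (4.20 to 6.97) in the pool labelled Saa3-/-. The homing receptor gene Ccr9 stood at 1.53 against 11.9 and at 2.97 against 8.70, and Cd4 at 2.78 against 6.50 and at 3.75 against 9.30. Dntt stood higher in the called cells, at 8.69 against 3.97 and at 10.6 against 6.82, while Rag1 stood at 4.79 against 4.69 and at 4.87 against 7.59. The intervals did not overlap for Trac, Ccr9, Cd4 or Dntt in either pool, and for Rag1 they overlapped in the pool labelled wild-type only. Cd8a stood at 6.74 against 8.67, with overlap, and at 9.34 against 6.23, without, and Cd8b1 at 7.02 against 5.06 and at 10.2 against 7.68, with overlap in both pools. Dntt and Rag1 are among the genes that admit a cell to the thymocyte gate, and Cd8b1 is one of its markers. Their levels inside the gate are thus partly set by the gate itself. Depth moved with the call, with medians of 8910 against 4394 molecules and 6953 against 3222, and its part in these differences was not tested; the cells not called in the pool labelled wild-type number 7.

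Outside the thymocyte gate, other G2/M and other S genes with enough molecules were compared between cells called at 5 and the rest. In the macrophage gate of the pool labelled wild-type, 15 of 15 and 8 of 12 were past 2-fold higher in called cells. Of all genes 4% were. In the pool labelled Saa3-/- the counts were 2 of 4 and 3 of 6, against 4.68%. In the T cell gate they were 4 of 8 and 9 of 12 in the pool labelled wild-type (6.7% of all genes) and 0 of 3 and 1 of 6 in the pool labelled Saa3-/- (3.63%). In both gates a gene near 0 in the other cells entered only if it was high in the called cells. The counts of both gates are therefore partly set by the filter on molecules, as in the thymocyte gate.

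Over all cells the pools held the 37 genes at like levels. The S and G2/M sum was 10.5 per 10000 in the pool labelled wild-type and 10.7 in the pool labelled Saa3-/-, a log2 ratio of 0.03 (-0.03 to 0.08). None of the 37 passed 2-fold, while of all genes tested 2.86% passed upward and 1.62% downward in the pool labelled Saa3-/-. The median log2 ratio of the 37 was 0.01, against 0.07 for all genes tested. Mki67 stood at 1.33 and 1.26 per 10000 and Top2a at 1.24 and 1.16. Ccnd3 stood at 1.21 and 1.76, a log2 ratio of 0.55 (0.41 to 0.68), and without the thymocyte gate of 0.27 (0.12 to 0.42).

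That likeness came with a different make-up of the pools. Without the thymocyte gate, which took 3.00% and 8.87% of the cells, the S and G2/M sum was 8.16 and 6.25, a log2 ratio of -0.38 (-0.45 to -0.32), and the median of the 37 was -0.34 against 0.05 for all genes. Of 37, 32 were below 0, and Ccna2 (-1.20), Aurkb (-1.38) and Bub1 (-1.45) passed the fold downward, where 1.65% of all genes did, and none upward, where 2.34% did. Mki67 then stood at 0.989 and 0.547 and Top2a at 0.821 and 0.435, while Pcna was level at 1.72 and 1.70. The G2/M genes were at a sum ratio of -0.73 and the S genes at -0.14.

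Within the thymocyte gate the pool labelled Saa3-/- was lower for most of the genes. Of 35 genes with 20 or more molecules 32 were below 0, the median log2 ratio was -0.54 against 0.10 for all genes, and 4 passed the fold downward, where 4.15% of all genes did, and none upward, where 10.2% did. The 4 were the helicase gene Mcm6 (-1.09, -1.55 to -0.64), Aurka (-1.86), the checkpoint kinase gene Bub1 (-1.31) and Cenpe (-1.03). Ccnd3 went the other way, at 0.67. The share of cells at 20 or more, which is set by the same genes, was 52.0% and 41.1%, with overlapping intervals.

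In the T cell gate 13 of 27 genes passed the fold downward in the pool labelled Saa3-/-, where 3.94% of all genes did, and none upward, where 2.91% did. The median was -0.95 against -0.00 for all genes. Of the G2/M genes, Mki67 was at -1.63 (-2.12 to -1.16), Top2a at -1.58 (-2.07 to -1.1), Ccna2 at -3.08 and Ube2c at -2.88. Birc5, Cenpe, Kif11, Nusap1 and Plk1 lay between -1.87 and -1.33. Ccnb2 had 21 molecules in 1 pool and 0 in the other, a log2 ratio of -2.64 or lower when set against a floor of 3 molecules over the gate. Of the S genes Mcm5 (-1.39), Mcm6 (-1.14) and Tyms (-1.62) passed. Ccnd2 and Ccnd3 were above 0.

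These T cell values rest on few cells. The pools had 7 and 3 cells at 20 or more, and 5 cells held 68.1% of the molecules of the first. With every cell thinned to 2000 molecules 2 of 15 passed and the median was -0.48. Without the top cell of each pool 13 of 25 passed.

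In the macrophage gate the S genes were level between the pools, at 3.90 and 3.94 per 10000, and the G2/M genes stood at 4.14 and 2.96. Of 29 genes Mcm2, Cdk1, Ccna2, Ube2c and Kif11 passed the fold downward, where 3.44% of all genes did, and none upward, where 3.06% did. Of the 5 only Ube2c (-2.16, -4.10 to -0.70) had an interval that excluded 0. The median was -0.20, against 0.03 for all genes. After thinning 0 of 11 passed. Mki67 stood at 1.12 and 0.809 and Top2a at 0.833 and 0.423. The cells at 20 or more numbered 9 and 4.

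In the B cell gate 7 of 14 genes passed the fold downward, where 7.42% of all genes did, and none upward, where 5.33% did. The 7 were Mcm3, Mcm5, Mcm7, Rrm1, Mki67, Top2a and Ccnd2. Mki67 had 57 molecules in 58 cells and 18 in 110, and Top2a 51 and 9. Among the 58 cells 1 held 36.6% of the S and G2/M molecules, and the level of its pool was 9.99 with it and 6.83 without it, against 5.30 in the pool labelled Saa3-/-. That cell held 94 molecules of the macrophage complement gene C1qb beside 43 of the B cell receptor gene Cd79a. Over the B cell gate macrophage markers summed to 31.3 per 10000 and B cell markers to 49.0, and their part in these values was not tested.

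**Figure D5:**
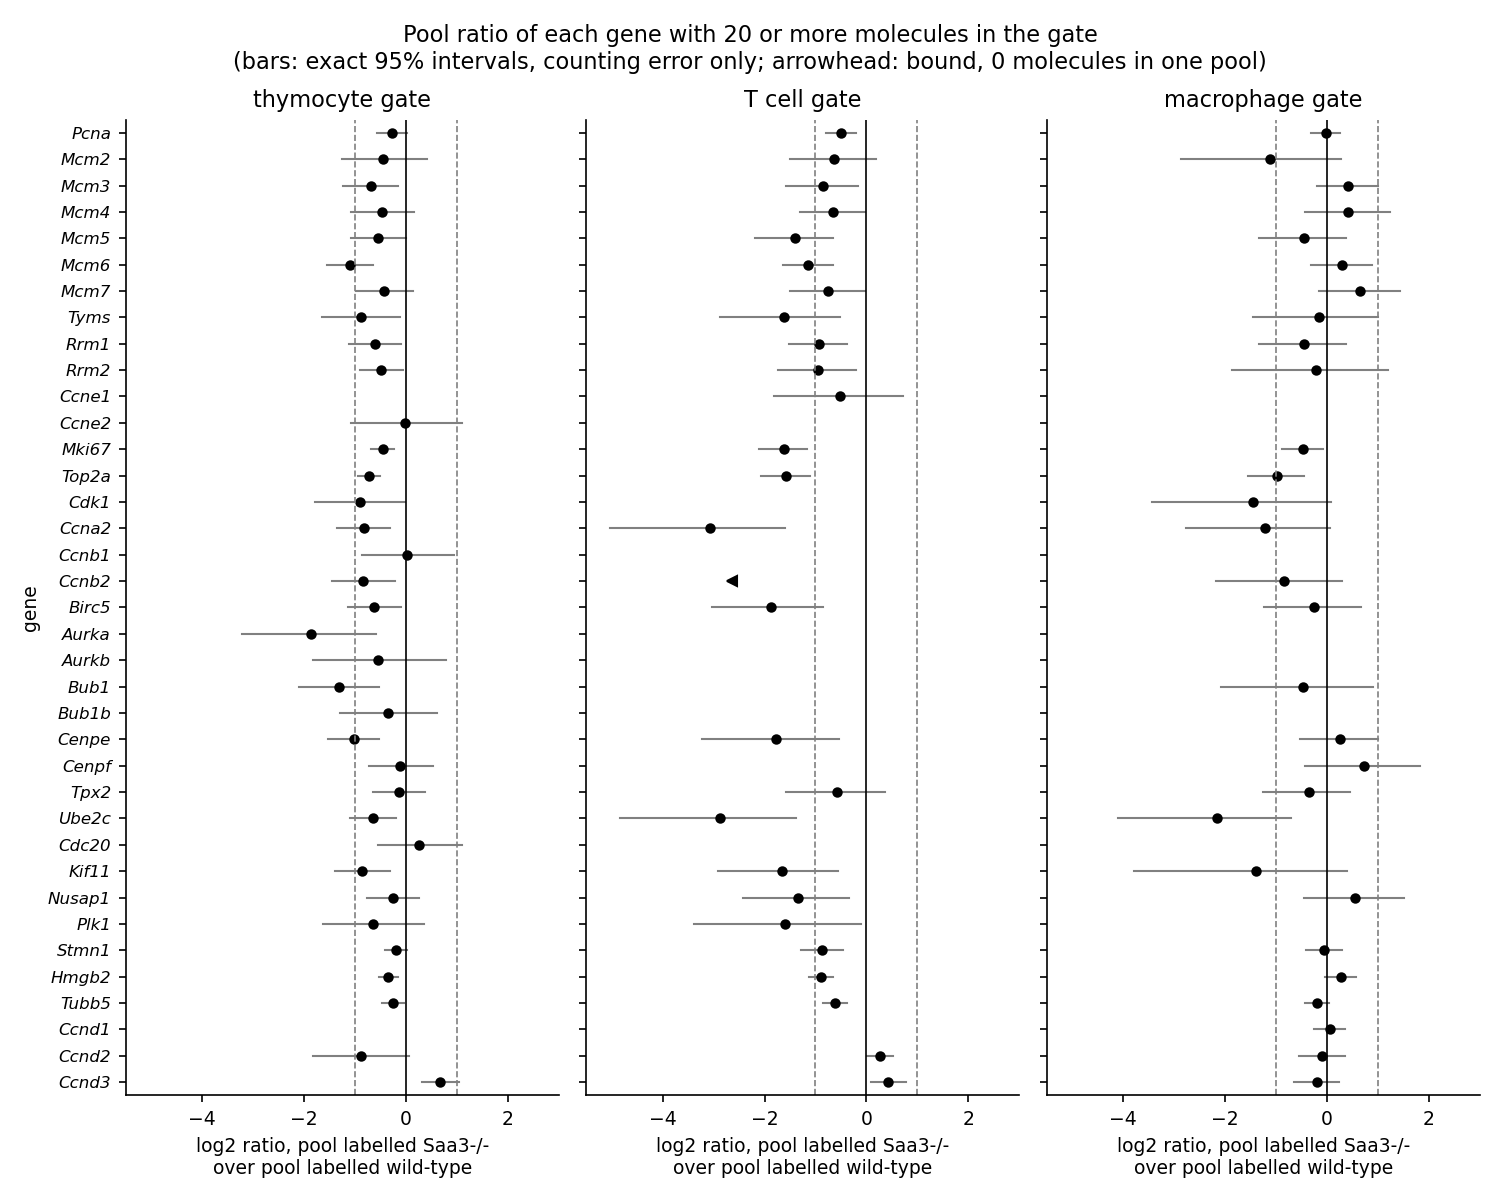
Log2 ratio of each gene's level between the pools, above 0 where the pool labelled Saa3-/- is higher (horizontal axis) in 3 marker gates, for genes with 20 or more molecules, with exact 95% intervals of counting error and dashed lines at 2-fold. Most genes lie below 0 in the thymocyte and T cell gates, and Ccnd3 lies above 0 in both.

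Some members cannot be told fully from other genes. Pcna, Mcm7, Ccnb1, Cdc20, Stmn1 and Hmgb2 share over 10% of their 50-base stretches with other annotated genes, such as Pcna, the most counted of the 31 S and G2/M genes, with Pcna-ps2 (19.1%), and 14 of the 37 overlap a gene on the opposite strand (GRCm38). Whether counting used strand is not given in the sources used here. Mki67 (chromosome 7, 135689784 to 135716361) and Top2a (chromosome 11, 98992943 to 99024189) share 0.668% and 1.1%.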

How the data were processed

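Cells from the aortic arch of both genotypes were tagged, pooled and captured as 1 library, and per the submitters' processing notes the reads went through the BD Rhapsody WTA Analysis Pipeline 1.11.1. The gene carried by the virus that both genotypes received is not reported here. The deposited tables hold counts, which were whole numbers of molecules per gene and cell, made by that pipeline on GRCm38 per the file headers. Tag multiplets (11 of 2401 putative cells) and 647 cells with no tag call stand outside the tables; no other doublet caller was run. Here cells with over 25% of molecules from mt- genes were left out (87 of 1743). Counts were summed over the cells of a gate and pool with numpy 2.4.6 and pandas 2.3.3, with exact Poisson, Clopper-Pearson and conditional binomial intervals from scipy 1.17.1. Genes with 20 or more molecules were compared, and 2-fold was the limit. Clusters came from scanpy 1.11.5 and leidenalg 0.10.2. The fold step was tested on simulated data for the T cell gate, where 185 of 187 tested genes changed 4-fold were recovered and 2.74% of unchanged genes passed. Smaller changes, near the 2-fold limit, were not simulated.

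The 37 genes and the other lists were chosen with earlier results of these data known. Genes named with values are the 8 with most molecules in the part described, Mki67, Top2a, the D cyclins and members past the fold. Also named are the 10 top genes outside the list, among those with 100 or more molecules, and up to 5 genes of each other list. Others are named after their values were seen. With 1 pool per genotype, p-values were not computed.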

Additional observations from a re-analysis of the deposited data

How the results depend on the processing

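No paired analysis was possible because each genotype is 1 tag pool of 1 library. Shares and levels stayed if within their interval, counts if within 1.5 times, and median log2 ratios if within a small set shift. Under an alternative, 90 of the values that answer a comparison stayed, 43 moved and 1 changed sign. Of the other values 109 stayed, 53 moved and 2 changed sign. The limit of 20, the gate without the rule on Rag1 and its partners, and the values without the top cell or without the thymocyte gate were chosen after seeing the data. In the order wild-type then Saa3-/- pool, the S and G2/M level per 10000 without the top cell was 89.0 and 59.3 in the thymocyte gate, 15.6 and 6.95 in the T cell gate and 7.23 and 5.36 in the macrophage gate. With every cell weighing the same it was 70.3 and 44.8, and 10.7 and 7.82, in the first 2 gates, and 7.10 in macrophage-gated cells of the wild-type pool. Without the rule on Rag1 and its partners it was 88.9 and 59.7 in the thymocyte gate and 23.4 and 14.9 in the T cell gate. With clusters it was 109 in the thymocyte gate (wild-type) and 7.78 in the macrophage gate (Saa3-/-).

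The share of called T cell-gated cells was 25.7% and 16.9% at a limit of 10, 4.73% and 1.88% at 20, 6.76% and 5% by 2 of Mki67, Top2a, Birc5, Cdk1 and Nusap1, and 16.0% and 9.62% after thinning. For macrophage-gated cells it was 13% and 9.80%, 5.56% and 3.92%, 16.0% and 4.90%, and 11.3% and 11.0%, and 43.2% at a limit of 3 in the wild-type pool. For thymocyte-gated cells of the Saa3-/- pool it was 41.1% at 20 and 31.5% by 2 of those 5 genes, and the S-leaning share was 34.1% with phase set by other genes.

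Over all cells the median log2 ratio changed sign to -0.34 without the thymocyte gate, and 3 genes passed the fold then, 3 in cells not called and 2 after thinning, against 0. In the thymocyte gate 1 gene passed in cells not called, with a median of -0.16. In cells not called the median was 0.20 in the T cell gate and 0.15 in the macrophage gate, both below 0 with all cells; the call is a limit on the sum of these same genes, so leaving out called cells takes away much of a difference by construction. Other S and G2/M genes past the fold in the thymocyte gate (wild-type) numbered 24 at a limit of 20 and 10 at 5. The causes were not tested, beyond that a higher limit and thinning leave fewer calls by construction. Counting intervals treat molecules of 1 cell as independent, and gates of 25 to 73 cells, with 7 or fewer high cells in the T cell gate, limit the pool ratios.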

Other observations

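Of the 96 cells called at 20 or more S and G2/M molecules per 10000, 13 passed no marker gate. They were 6 of 127 ungated cells of the pool labelled wild-type and 7 of 144 of the pool labelled Saa3-/-, and 11 of the 13 had no molecule of Rag1, Rag2, Dntt, Ptcra or Arpp21. The highest reached 113 and 95.3 per 10000, with 11 and 25 molecules of Mki67.

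Among 3 erythroid-gated cells of the pool labelled Saa3-/-, chosen after its values were seen, the mitotic ubiquitin enzyme gene Ube2c stood at 12.2 per 10000. Of these cells 1 was called at 22.4 S and G2/M molecules per 10000, with 1 S and 8 G2/M molecules. It had 0 molecules of Mki67 and Top2a. Another stood at 25.3 and was not called, since its molecules came from 2 genes. The gate held 1 cell of the other pool.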
